A study of Mus musculus with 40 samples.

Results

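The comparison described here is that of stressed against resilient mice in astrocytes of the caudate putamen, the dorsal part of the striatum. Its members are the libraries labelled CPU_stressed and CPU_resilient, 3 and 2 libraries, together 5 of the 40 libraries of the series. The 2 libraries labelled CPU_control are given beside them and entered the fit. Stressed mice had been defeated by a CD1 aggressor in daily contacts of 10 minutes on 10 days and had a social interaction index below 1. Resilient mice had the same defeat and an index above 1. Control mice had no defeat, were housed in groups in the same room and had an index above 1. Tissue was taken 2 days after the last defeat, and each library pooled the caudate putamen of 2 mice. All mice, controls included, were adults of the line Tg(Aldh1l1-EGFP/Rpl10a)JD130Htz. In this line the promoter of Aldh1l1, a folate enzyme of astrocytes, drives an EGFP-tagged ribosomal protein, and ribosomes with their RNA were pulled down by the tag (translating ribosome affinity purification, TRAP). The counts therefore describe ribosome-bound RNA of cells in which that promoter is active, with RNA of other cells that came along. Which mice gave several regions is not stated in the labels.

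Astrocytes of the striatum surround synapses, take up glutamate and GABA, clear potassium through Kir channels, and secrete lipoproteins and matrix proteins that shape synapses. Chronic social defeat is used in mice because some defeated animals avoid others afterwards, the stressed or susceptible ones, while others keep normal social behaviour, the resilient ones. The comparison of these groups holds the defeat itself constant and asks what differs between the outcomes.

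Total counts in genes were 21.3 to 26.2 M in the 7 caudate putamen libraries, with a count in 17485 to 18295 genes. Astrocyte markers were abundant in every library. Aldh1l1 stood at 347, 403 and 377 CPM (counts per library scaled to the same total) in the stressed libraries, against 380.2 and 435 CPM in the resilient and 324 and 428 CPM in the control libraries. Summed over 25 astrocyte core markers, the level was 62352 to 100224 CPM in stressed, 59879 to 68224 CPM in resilient and 49548 to 91068 CPM in control libraries. Summed over 16 general neuron markers it was 890.3 to 1890 CPM, 1402 to 2021 CPM and 1796 to 1996 CPM in stressed, resilient and control libraries. Over 18 striatal projection neuron markers it was 2413 to 3724 CPM, 3227 to 4104 CPM and 3470 to 4475 CPM in the same order. The most abundant of these, Ppp1r1b, had a mean log2 CPM of 10.1, above the 8.59 of Aldh1l1. No unbound or whole-tissue RNA was compared, so the enrichment of astrocyte RNA was not measured. The first principal component of the 7 libraries carried 36.5% of the variance and did not separate the groups. Stressed replicates 1 and 2 lay at one end of it, at -47.9 and -22.0, and stressed replicate 3 at 16.98, between the resilient libraries at 26.5 and -0.04. Libraries of a group also differed in their trend with transcript length. Across 14175 genes, the log2 deviation from the 7-library mean had Spearman rho with length of -0.285, -0.107 and 0.407 in stressed libraries. It was 0.247 and -0.215 in resilient and -0.026 and 0.014 in control libraries. With the G and C share rho was 0.015, -0.025 and -0.221 in stressed, -0.319 and -0.079 in resilient, and 0.263 and 0.266 in controls. The source of these trends was not tested.

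By the edgeR quasi-likelihood test no gene of 14958 tested differed between stressed and resilient libraries at an adjusted p under 0.05, that is 0% of the genes tested. The smallest adjusted p was 0.939, so every edgeR difference below missed the threshold. At an unadjusted p under 0.05 there were 382 genes, 2.55% of those tested, of which 204 (1.36%) were higher and 178 (1.19%) lower in stressed libraries. DESeq2 on the same 7 libraries called 3 genes higher and none lower of 20517 tested (0.0146%), with 400 genes at an unadjusted p under 0.05. The 3 were Irf2bp2, Ski and Extl3. The biological coefficient of variation was 19.96%, and the median 95% interval of a log2 fold change reached 0.51 to either side of its value, or 0.35 among the 5710 most abundant genes (mean log2 CPM from 5 up). With no filter on low counts edgeR called 1 gene of 20517, Irf2bp2. Leaving out each of the 7 libraries in turn gave 0 edgeR calls every time. With DESeq2, Irf2bp2 and Ski passed without each of the 7 libraries, while Extl3 passed without either control library and without stressed replicate 3 only. The DESeq2 count was 82 without stressed replicate 3, with 13 higher and 69 lower. It was 8 without control replicate 1 and 7 without control replicate 2. Both of these held Kcnj10 and Samd1 as higher and Slco1a4 as lower, and without control replicate 1 Flt1 was lower too. The count was 3 without resilient replicate 1, and 2 without resilient replicate 2 or stressed replicates 1 or 2. The resilient and the control groups had 2 libraries each, and a left-out library leaves 1 that is assumed to vary like the other groups.

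**Figure D1:**
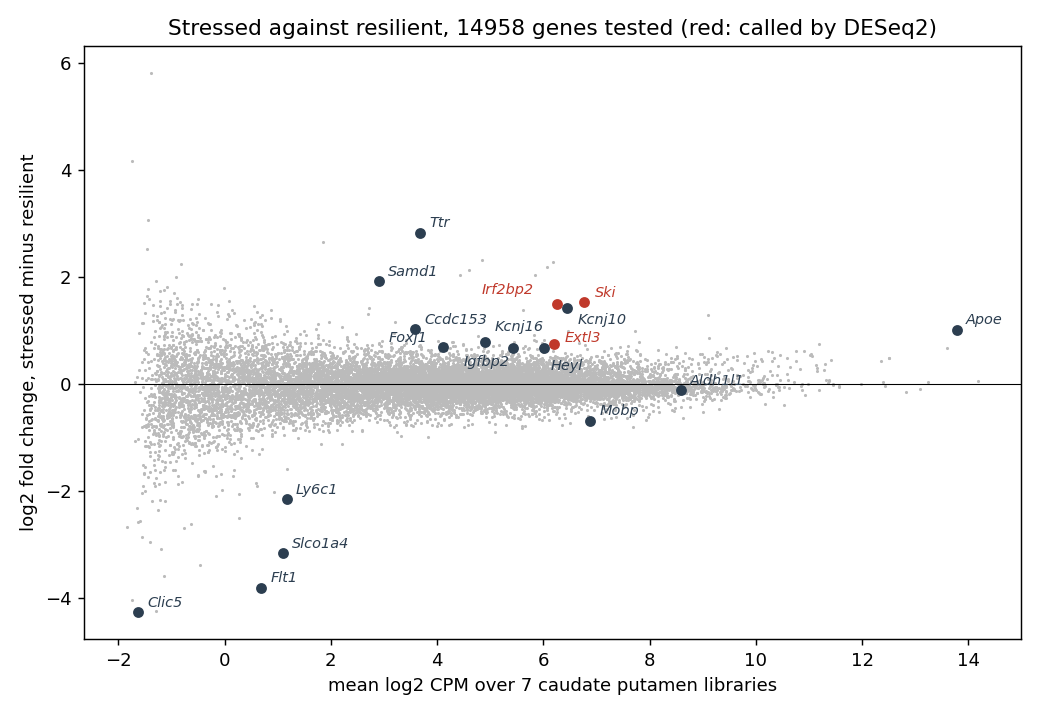
Log2 fold change of stressed minus resilient libraries (vertical axis) against the mean log2 CPM over the 7 caudate putamen libraries (horizontal axis), 1 point per gene for 14958 genes. Red points are the 3 genes called by DESeq2, and dark points other genes named in the text. Irf2bp2 and Ski lie at 1.49 and 1.53 among well-counted genes, while low values such as those of Flt1, Slco1a4 and Clic5 belong to genes with few counts.

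Irf2bp2 encodes a nuclear co-repressor that binds the interferon regulatory factor IRF2, and Ski encodes a co-repressor of SMAD proteins in TGF-beta and BMP signalling. Irf2bp2 lies on chr8:126588296-126593986 and Ski on chr4:155154075-155222592, both on the minus strand of mm10 (GENCODE M21). The bases just before their annotated starts are shown because the levels of both genes went together over the libraries of the series (given below). They come from the RefSeq promoter table (GRCm38.p6, minus strand), 250 bases for Irf2bp2 at chr8:126593987-126594236 and 193 bases for Ski at chr4:155222593-155222785, where the RefSeq start lies 57 bases further into the gene. Capitals mark GGGCGG on either strand, the GC box.
Irf2bp2: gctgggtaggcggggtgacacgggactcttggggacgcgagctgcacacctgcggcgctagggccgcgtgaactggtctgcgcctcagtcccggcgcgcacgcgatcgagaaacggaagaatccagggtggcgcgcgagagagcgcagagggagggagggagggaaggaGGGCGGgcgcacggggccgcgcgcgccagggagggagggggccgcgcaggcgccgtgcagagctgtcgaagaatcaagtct
Ski: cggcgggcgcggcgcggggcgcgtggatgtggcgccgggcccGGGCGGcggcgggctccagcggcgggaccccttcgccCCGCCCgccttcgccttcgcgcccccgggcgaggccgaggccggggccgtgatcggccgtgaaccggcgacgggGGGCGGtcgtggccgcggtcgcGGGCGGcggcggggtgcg
The Irf2bp2 stretch is 71.6% G and C, and the Ski stretch 86.5%, against medians of 52.4% and 51.3% over 32851 RefSeq promoters cut to the same lengths. GGGCGG occurs 1 time before Irf2bp2 and 4 times before Ski. It is held by 32.7% of all promoters in the 250-base window and by 23.5% in the 193-base window. The shorter window leaves out the 57 bases before the RefSeq start of every promoter, as for Ski. The CCAAT box, held by 33.8% of all promoters in the longer and 27.3% in the shorter window, has no match on either strand of these stretches. The same is true of the TATA motif TATAAA (12.4% and 8.86%), the E-box CACGTG (6.02% and 4.11%) and the cyclic AMP response element TGACGTCA (1.55% and 0.737%). Samd1, whose levels also went with those of Irf2bp2 and Ski (given below), was not scanned. Whether these sequences bear on the levels was not tested.

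Irf2bp2 had 99.1, 96.4 and 96.8 CPM in the stressed libraries, against 30.8 and 38.8 CPM in the resilient and 104 and 69.4 CPM in the control libraries. The stressed values lay close together and all above both resilient values, and both controls were on the stressed side. The log2 fold change of stressed over resilient was 1.49 ± 0.196 (SE, 95% interval 1.03 to 1.94), with an unadjusted p of 6.62e-05 and an adjusted p of 0.939 by edgeR's quasi-likelihood test. By DESeq2 it was 1.497 with an adjusted p of 2.94e-07. Ski had 135, 146 and 156 CPM in stressed, 37.1 and 63.9 CPM in resilient, and 129 and 94.9 CPM in control libraries. Its log2 fold change was 1.53 ± 0.245 (SE), with an unadjusted edgeR p of 0.00026 and a DESeq2 adjusted p of 2.18e-05. Against controls the stressed libraries differed little, by log2 0.17 for Irf2bp2 and 0.38 for Ski, while the resilient libraries were lower than controls by -1.32 and -1.15, contrasts that share these same libraries. Samd1, which encodes a chromatin protein that binds unmethylated CpG-rich DNA, had the same order at a lower level. It stood at 9.53, 11.6 and 6.71 CPM in stressed, 1.75 and 3.19 CPM in resilient, and 13.6 and 5.30 CPM in control libraries, with a log2 fold change of 1.91 ± 0.483 (SE) and a DESeq2 adjusted p of 0.0889.

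**Figure D2:**
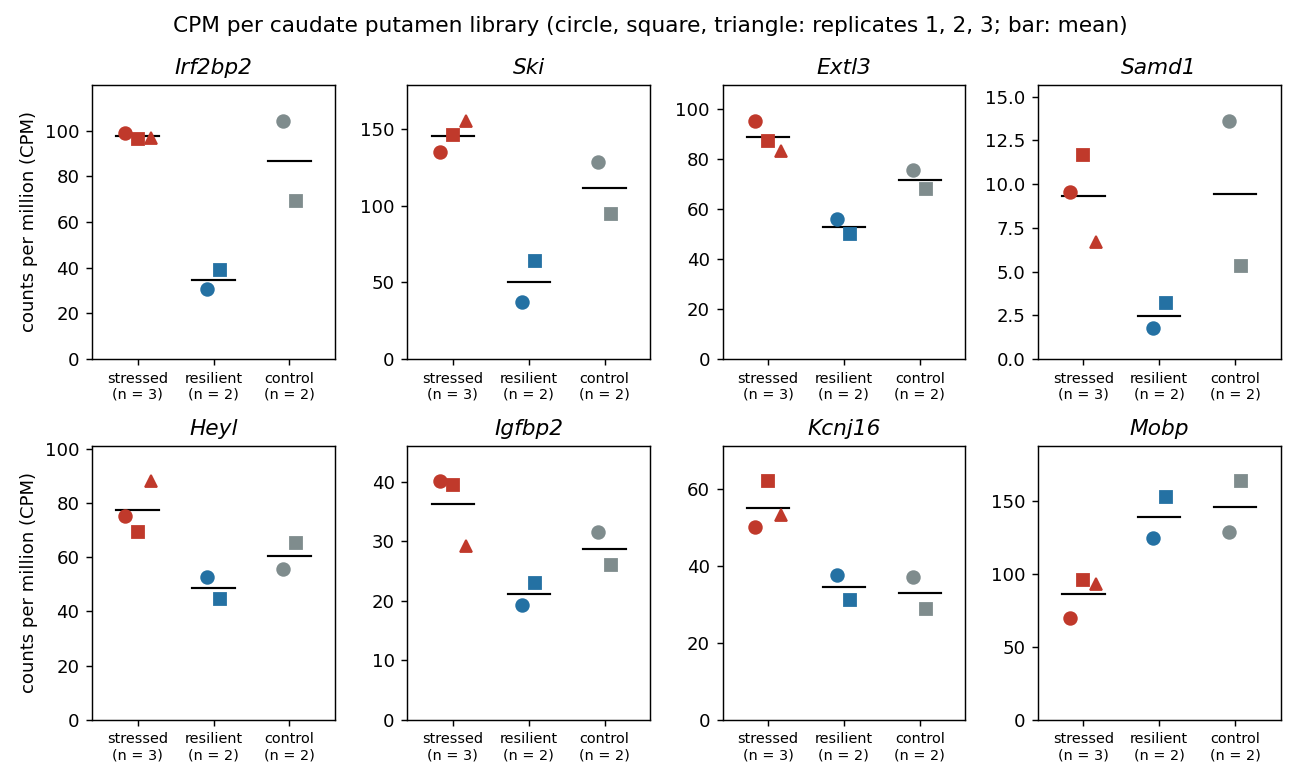
CPM of 8 genes in each caudate putamen library, 1 panel per gene with its own vertical axis from 0. Points are libraries (circle, square and triangle for replicates 1, 2 and 3), and the bar is the group mean for stressed (n = 3), resilient (n = 2) and control (n = 2). In every panel the stressed and resilient libraries are apart. In the panels of Irf2bp2, Ski, Extl3 and Samd1 both controls lie above both resilient libraries.

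Over all 40 libraries Irf2bp2, Ski and Samd1 moved together. On the log2 scale, with 6 pairs among these genes and Extl3 computed, Irf2bp2 and Ski had a Pearson r of 0.927 and a Spearman rho of 0.808, with adjusted permutation p of 2e-05 and 3e-05. Irf2bp2 and Samd1 had 0.924 and 0.791, with the same adjusted permutation p. The unadjusted p of 1e-05 is the smallest that 100000 resamples can give. Resampling treated the 40 libraries as independent, although libraries of different regions may share mice. The genes were chosen by their caudate putamen values, which are among the 40 libraries. No pairs of other genes were computed for comparison. Without the 2 libraries farthest from the median of Irf2bp2, r was 0.899 and 0.897, and after subtraction of the 12 group means it was 0.938 and 0.871. Ski and Samd1 had 0.821 and 0.598, with adjusted permutation p of 2e-05 and 0.00016, and r was 0.839 after the group means were subtracted. Extl3 had an r of 0.186 with Irf2bp2 (adjusted permutation p = 0.3), of 0.315 with Ski (0.0715) and of 0.0853 with Samd1 (0.603). By Spearman's rho only its pair with Ski passed, at 0.365 with an adjusted permutation p of 0.0311. After the group means were subtracted r was -0.117, -0.134 and -0.0215 for these 3 pairs. Low Irf2bp2 was not limited to resilient mice. Outside the caudate putamen, 3 of 33 libraries were at or below its higher resilient value of 39.0 CPM (scaled over 40 libraries): 1 stressed library of the hippocampus and 2 resilient libraries, 1 each of the hippocampus and the nucleus accumbens. For Ski 6 of 33 were at or below its higher resilient value of 64.2 CPM, of which 2 were stressed, 3 resilient and 1 control, and they included the 3 libraries named for Irf2bp2. In the stressed hippocampus Irf2bp2 ran from 30.7 to 125 CPM (median 101 CPM, n = 5), so that libraries of that single group spanned the difference seen in the caudate putamen.

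Base composition of the transcripts was set beside the differences. The most GC-rich 200-base window of the longest coding transcript held 92.0% G and C for Irf2bp2 and 93.0% for Samd1, above 99.96% and 99.99% of 13686 genes with a value, against a median of 67.5%. For Ski it was 78.5% (above 87.1% of genes) and for Extl3 68.0%. Over the whole transcript the share was 54.6% for Irf2bp2, 55.6% for Ski, 54.2% for Extl3 and 67.3% for Samd1. These shares lay above 74.8%, 79.8%, 72.7% and 99.8% of 14175 genes, so only Samd1 was extreme by this measure. Across genes, which are not independent replicates, the window share and the log2 fold change had a Spearman rho of 0.0873. For the whole-transcript share rho was 0.111. The median log2 fold change was -0.04 for 5783 genes with a window of 60 to 70%, where Extl3 lies, -0.02 for 4258 genes at 70 to 80%, where Ski lies, 0.03 for 1008 genes at 80 to 85%, and 0.11 for 224 genes at 85 to 90%. Only 11 genes lay at 90% or more, with a median of 0.40. Without overlap between the groups, 20.5% of the genes at 85 to 90% were higher in stressed libraries, against 10.5% of all genes. At 90% or more 6 of the 11 genes (54.5%) were, Irf2bp2 and Samd1 included. With a trend on this window share taken out of each library, an alternative chosen after the data were seen, the log2 fold change of Irf2bp2 was 1.31, that of Ski 1.51 and that of Samd1 1.73, and edgeR still called 0 genes. The trend was smoothed across genes, of which only 11 lay at 90% or more. It therefore cannot show how much of the differences in Irf2bp2 and Samd1 goes with composition. What base composition contributes was not tested.

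Extl3 encodes a glycosyltransferase that starts heparan sulphate chains. It had 95.5, 87.5 and 83.3 CPM in stressed, 56.0 and 50.1 CPM in resilient, and 75.6 and 68.1 CPM in control libraries. The groups were apart, with controls between them, and the log2 fold change was 0.74 ± 0.127 (SE), with an unadjusted edgeR p of 0.000393 and a DESeq2 adjusted p of 0.0319. Heyl, a transcriptional repressor downstream of Notch, had 75.1, 69.2 and 87.9 CPM in stressed against 52.5 and 44.6 CPM in resilient libraries (log2 fold change 0.67 ± 0.157, unadjusted p = 0.0027 by edgeR). Igfbp2, a secreted binding protein of insulin-like growth factors, had 40.04, 39.4 and 29.2 CPM against 19.2 and 22.97 CPM (0.78 ± 0.195). Kcnj16, the Kir5.1 subunit of inward rectifier potassium channels, had 49.97, 61.9 and 53.0 CPM in stressed, 37.6 and 31.1 CPM in resilient and 37.0 and 28.8 CPM in control libraries. Here the controls lay with the resilient libraries, and stressed libraries stood above all others. Ssfa2 had 51.0, 53.2 and 39.9 CPM in stressed against 33.0 and 29.7 CPM in resilient libraries. Acot5, an acyl-CoA thioesterase, and Cpn1, the catalytic subunit of carboxypeptidase N, were at 0.937 to 1.47 CPM and 1.26 to 1.58 CPM in stressed libraries, against 0.328 to 0.342 CPM and 0.598 to 0.610 CPM in resilient ones. These 10 genes had the smallest p among the higher ones, and apart from the 3 DESeq2 calls all missed both thresholds.

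Among the lower genes, Mobp was the most abundant of the 10 with the smallest p. It encodes a structural protein of central myelin and had 69.97, 96.0 and 93.0 CPM in stressed, 125 and 153 CPM in resilient, and 129 and 164 CPM in control libraries (log2 fold change -0.69 ± 0.18, unadjusted p = 0.0052 by edgeR). Stressed libraries were below all others. Dusp14, a dual-specificity phosphatase, had 25.9, 31.8 and 28.1 CPM in stressed against 46.3 and 38.0 CPM in resilient libraries, and Grb14, an adaptor that inhibits the insulin receptor, had 9.16, 10.8 and 12.0 CPM against 15.8 and 18.8 CPM. For both, the controls lay above the stressed libraries too. The other 7 were at or below 1.37 CPM in every stressed and resilient library. Aim2, a sensor of cytosolic DNA, had 0.122, 0.343 and 0.540 CPM in stressed, 1.37 and 1.27 CPM in resilient, and 1.17 and 1.33 CPM in control libraries. Calcrl, the receptor subunit for CGRP and adrenomedullin, had 0.0815, 0.294 and 0.180 CPM in stressed against 0.683 and 0.985 CPM in resilient libraries, with controls at 0.130 and 0.143 CPM. Clic5, at 0.0407 CPM in stressed replicate 1 and 0 in the others, Atp10a, at 0.0901 CPM in stressed replicate 3 and 0 in the others, St3gal1, Esco2 and Foxq1 rested on so few reads in stressed libraries that their fitted folds are not given.

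Genes of blood vessels formed the group with the lowest values. Of 12 endothelial markers 11 were tested, the other having failed the filter on low counts, and 8 of the 11 were lower in every stressed library than in both resilient ones, against 10.3% of all genes, with none higher. Their median log2 fold change was -1.73, against -0.02 over all genes, and 3 had an unadjusted p under 0.05. Slco1a4, an organic anion transporter of the blood-brain barrier, had 0.122, 0.685 and 0.180 CPM in stressed, 2.99 and 2.81 CPM in resilient, and 0.692 and 6.55 CPM in control libraries (log2 fold change -3.17 ± 0.955, unadjusted p = 0.0107 by edgeR). Ly6c1, a surface protein of brain endothelium, had 0.937, 0.294 and 0.676 CPM in stressed, 2.65 and 3.14 CPM in resilient, and 0.952 and 6.20 CPM in control libraries (-2.16 ± 0.743). No reads of Flt1, a VEGF receptor, were found in stressed replicate 1. It had 0, 0.245 and 0.135 CPM in stressed, 2.56 and 0.938 CPM in resilient, and 0.0865 and 6.30 CPM in control libraries. Itm2a had 1.71, 2.84 and 3.20 CPM in stressed against 7.69 and 3.47 CPM in resilient libraries. The controls spanned both groups, with replicate 1 near the stressed libraries and replicate 2 above the resilient ones. The summed endothelial level was 6.80 to 11.4 CPM in stressed, 18.4 to 28.3 CPM in resilient and 13.8 to 52.1 CPM in control libraries, a small share of any library. The mean log2 level differed by -1.59, with an exact two-sided permutation p of 0.2, the smallest that 3 against 2 libraries allow, and an adjusted p of 0.545 over 15 lists. Without resilient replicate 1 the median log2 fold change of the list was -0.76. In these bulk libraries fewer cells of a type and less RNA per cell cannot be told apart, and neither can carried-over RNA of such cells.

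Mural cells, which wrap the vessels, differed less clearly. Of 8 tested markers 2 were lower and 2 higher without overlap, beside 10.3% and 10.5% of all genes, and the summed level was 82.8 to 85.7 CPM in stressed, 76.1 to 79.6 CPM in resilient and 75.5 to 76.4 CPM in control libraries. Vtn, vitronectin, had 1.14, 2.20 and 1.76 CPM in stressed against 3.89 and 2.25 CPM in resilient libraries. Rgs5, a pericyte marker, had 0.367, 0.930 and 0.540 CPM in stressed against 1.71 and 0.656 CPM in resilient libraries, with overlap between the groups. Beside Vtn, Kcnj8 was lower without overlap (log2 fold change -1.27 ± 0.585). Notch3 (0.52 ± 0.237) and Pdgfrb (0.10 ± 0.119) were the higher ones. Of the 8 markers 4 were positive and 4 negative. Pdgfrb was the most abundant, at a mean log2 CPM of 5.86, and weighs most in the summed level.

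Genes of ciliated ependymal cells, which line the ventricles beside the caudate putamen, had higher values in stressed libraries, none past the threshold. Of 12 listed markers 9 were tested, all 9 had a positive log2 fold change with a median of 0.69, and 6 were higher in every stressed library than in both resilient ones, beside 10.5% of all genes. Foxj1, the transcription factor that drives motile cilia, had 20.1, 15.2 and 16.5 CPM in stressed, 10.1 and 11.4 CPM in resilient, and 18.8 and 28.1 CPM in control libraries (log2 fold change 0.68 ± 0.227, unadjusted p = 0.0168 by edgeR). Ccdc153 had 18.9, 12.7 and 10.5 CPM in stressed, 9.57 and 4.27 CPM in resilient, and 14.4 and 13.1 CPM in control libraries. For both genes the controls lay above the resilient libraries. Ak7, an adenylate kinase of cilia, had 3.34, 2.10 and 2.48 CPM in stressed against 1.62 and 0.703 CPM in resilient libraries, and Calml4 had 1.75, 2.20 and 1.44 CPM against 1.03 and 0.563 CPM. The summed level was 70.3 to 99.01 CPM in stressed, 46.3 to 58.9 CPM in resilient and 86.4 to 89.8 CPM in control libraries. The mean log2 level of these markers differed by 0.74, with an exact permutation p of 0.2, the smallest possible, and an adjusted p of 0.545. The choroid plexus, also at the ventricle, had 4 of 12 markers tested. Ttr, transthyretin, which the choroid plexus makes in bulk, had 46.1, 18.1 and 1.98 CPM in stressed, 4.19 and 2.02 CPM in resilient, and 13.4 and 3.40 CPM in control libraries. Ttr was thus high in 2 stressed libraries, and the third lay below both resilient ones. Among the other tested markers, Clic6 was slightly lower without overlap (log2 fold change -0.20 ± 0.313). Kl (0.29 ± 0.788) and Otx2 (0.15 ± 0.493) overlapped. The part of dissection in the ependymal values was not tested.

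**Figure D3:**
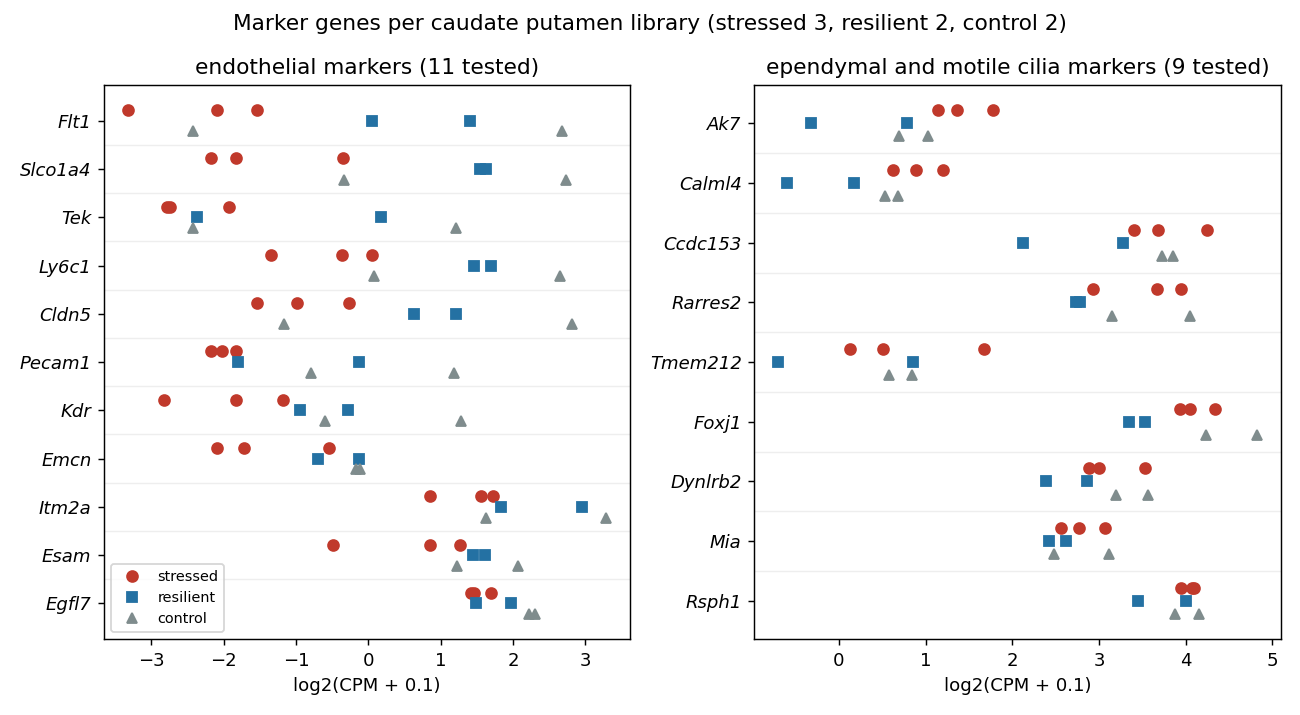
Log2(CPM + 0.1) of 11 endothelial markers (left) and 9 ependymal and motile cilia markers (right), 1 row per gene and 1 point per caudate putamen library. Red circles are stressed (n = 3), blue squares resilient (n = 2) and grey triangles control libraries (n = 2). For 8 endothelial genes all stressed points lie left of the resilient ones, and for 6 ependymal genes all lie right of them, while control points reach both sides in the endothelial panel.

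Among the astrocyte core markers 8 of 25 were higher in every stressed library than in both resilient ones and none was lower, beside 10.5% and 10.3% of all genes, and 22 had a positive log2 fold change, with a median of 0.30. None had an unadjusted p under 0.05. Apoe, the main lipoprotein of astrocytes, had 22651, 21817 and 9039 CPM in stressed, 8021 and 9658 CPM in resilient, and 21301 and 6017 CPM in control libraries. Stressed replicates 1 and 2 and control replicate 1 were high, and the other 4 libraries low, so that stressed replicate 3 lay between the resilient libraries (log2 fold change 1.01 ± 0.557, unadjusted p = 0.107 by edgeR). Slc1a2, the glutamate transporter GLT-1, followed the same libraries, with 3604, 3215 and 1721 CPM in stressed, 1674 and 1741 CPM in resilient, and 3414 and 927 CPM in control libraries. Slc1a3, the transporter GLAST, had 3512, 3378 and 2749.7 CPM in stressed against 2446 and 2265 CPM in resilient libraries. Aqp4, the water channel of astrocyte endfeet, had 551, 578 and 487 CPM in stressed, 385 and 397 CPM in resilient, and 449 and 259.9 CPM in control libraries (0.46 ± 0.217). Gja1, connexin 43, had 1358, 1464 and 1397 CPM in stressed against 1200.1 and 1174 CPM in resilient libraries. For Slc1a3, Aqp4 and Gja1 the stressed and resilient libraries did not overlap.

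Other defining genes of astrocytes overlapped between the groups. Gfap, the filament protein that marks reactive astrocytes, had 1323, 1371 and 1025 CPM in stressed, 752 and 1473 CPM in resilient, and 867 and 1202 CPM in control libraries. The resilient libraries thus lay on both sides of the stressed ones. Aldoc, the brain aldolase, had 21009.7, 20494 and 16664 CPM in stressed against 17662 and 19824 CPM in resilient libraries. Glul, glutamine synthetase, had 1351, 1625 and 1201 CPM against 1257 and 1625 CPM, and S100b, a calcium-binding protein, 963, 826 and 571 CPM against 617 and 689.8 CPM. Rpl10a, whose tagged form is the bait, had 127, 119 and 86.2 CPM in stressed, 79.7 and 102 CPM in resilient, and 121 and 93.5 CPM in control libraries. The 95% interval of the log2 fold change was -0.46 to 0.23 for Aldh1l1, -0.33 to 0.43 for Aldoc, -0.44 to 0.34 for Glul and -0.51 to 0.82 for Gfap.

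**Figure D4:**
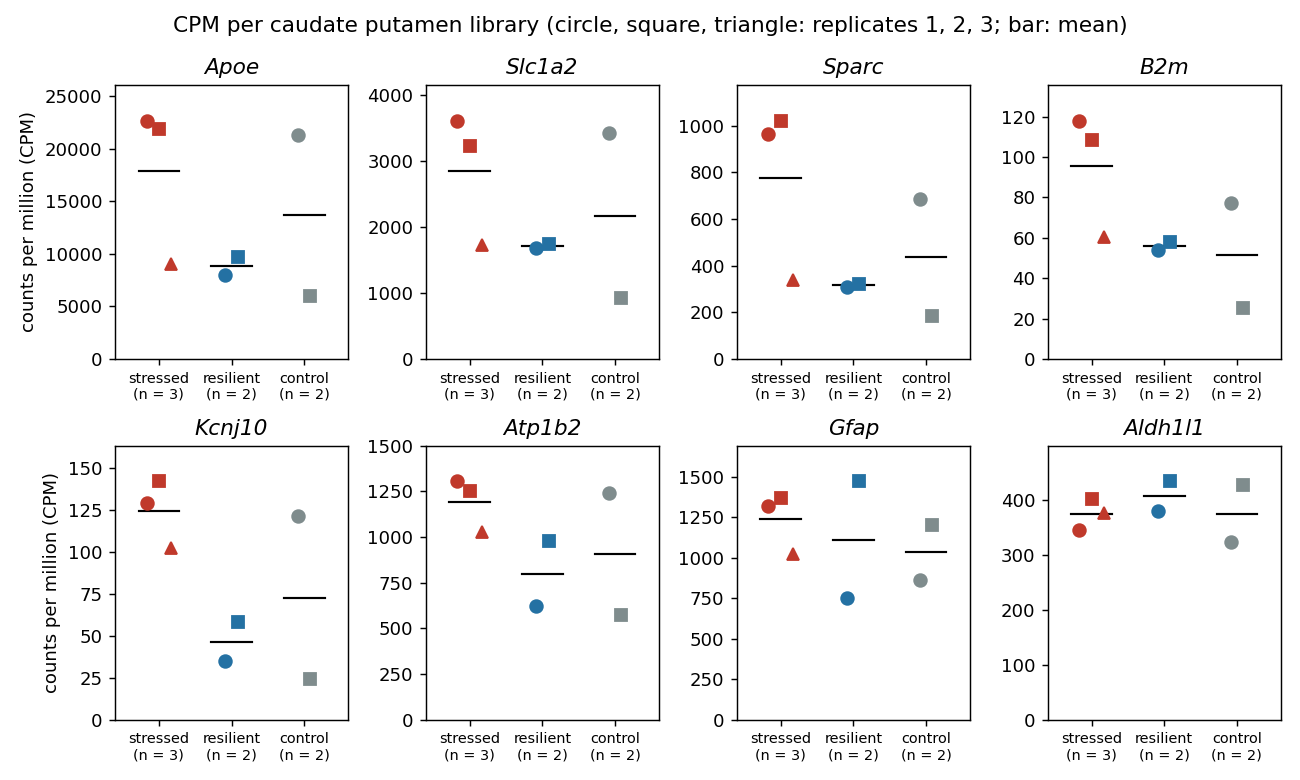
CPM of 8 astrocyte genes in each caudate putamen library, 1 panel per gene with its own vertical axis from 0. Points are libraries (circle, square and triangle for replicates 1, 2 and 3), and the bar is the mean of stressed (n = 3), resilient (n = 2) and control (n = 2) libraries. In the panels of Apoe, Slc1a2, Sparc and B2m, stressed replicates 1 and 2 and control replicate 1 are high and the other 4 libraries are lower, while Gfap and Aldh1l1 overlap between the groups.

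Genes for ion and transmitter handling at the astrocyte membrane were described by 2 lists, with no member called. Of 19 genes for potassium, water and gap junctions, 7 were higher without overlap and none lower, beside 10.5% and 10.3% of all genes, with a median log2 fold change of 0.24. Kcnj10, the main glial inward rectifier Kir4.1, had 129, 142 and 102 CPM in stressed, 34.7 and 58.0 CPM in resilient, and 121 and 24.1 CPM in control libraries (1.42 ± 0.583, unadjusted p = 0.041 by edgeR). All stressed libraries were above both resilient ones, with 1 control on either side. Atp1b2, the glial sodium pump subunit, had 1305, 1251 and 1025 CPM in stressed against 621 and 980.2 CPM in resilient libraries. Of 18 genes for glutamate and GABA handling, 5 were higher without overlap and none lower (median 0.26). Slc6a11, the GABA transporter GAT-3, had 309.9, 308 and 294 CPM in stressed against 202 and 266 CPM in resilient libraries. The GABA-B receptor genes Gabbr1, with 629.5, 408 and 365 CPM against 298 and 328 CPM, and Gabbr2, with 111, 111 and 126 CPM against 102 and 68.1 CPM, were apart as well.

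Of 22 tested genes for synapse-organizing secreted and matrix proteins, 10 were higher without overlap and none lower, with a median log2 fold change of 0.40 and no member called. The shares over all genes were 10.5% higher and 10.3% lower, also for the chaperone and collagen lists given next. Sparc, a matrix protein of astrocytes that acts on synapses, had 963, 1021 and 338 CPM in stressed, 310.0 and 323 CPM in resilient, and 687 and 186 CPM in control libraries. Gpc6, a glypican that recruits AMPA receptors, had 37.9, 35.5 and 31.0 CPM in stressed against 20.6 and 22.7 CPM in resilient libraries (0.69 ± 0.292, unadjusted p = 0.0472 by edgeR). Thbs4, a thrombospondin, went the other way on average (-0.80 ± 0.326), but 17.6, 20.02 and 11.3 CPM in stressed overlapped 19.4 and 37.5 CPM in resilient libraries. Of 22 genes for chaperones of the endoplasmic reticulum, 21 had a positive log2 fold change, 9 were higher without overlap and none lower (median 0.33), and none had an unadjusted p under 0.05. Sdf2l1 had 16.0, 13.2 and 10.4 CPM in stressed against 9.18 and 9.56 CPM in resilient libraries, and Dnajb9, with 42.5, 41.3 and 28.3 CPM against 20.5 and 28.6 CPM, overlapped. Of 19 genes for collagens, laminins and integrins, 9 were higher and 2 lower without overlap. Itgb1, an integrin subunit, had 41.1, 38.6 and 37.5 CPM in stressed against 32.0 and 26.4 CPM in resilient libraries. The basement membrane collagens split, with Col4a1 at 4.97, 6.36 and 4.59 CPM in stressed against 3.84 and 3.24 CPM in resilient libraries, and Col4a2 at 4.56, 4.80 and 4.01 CPM against 6.83 and 5.25 CPM. Mfge8, a secreted bridge to dying cells, had 1706, 1767 and 1107 CPM in stressed, 1018 and 992 CPM in resilient and 1556 and 719.8 CPM in control libraries and, unlike Apoe, did not overlap between stressed and resilient libraries.

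Of 20 trophic factor and receptor genes, 8 were higher and 1 lower without overlap (median 0.23). Here and for the sterol and receptor lists that follow, the shares over all genes were 10.5% higher and 10.3% lower. Vegfa, the angiogenic factor that acts through Flt1 and Kdr, had 254, 228 and 186 CPM in stressed, 161 and 165 CPM in resilient, and 174 and 166 CPM in control libraries (0.45 ± 0.146, unadjusted p = 0.0149 by edgeR). Fgfr2 had 148, 140.3 and 148 CPM in stressed against 119 and 118 CPM in resilient libraries, Fgfr3 838, 845 and 703 CPM against 614 and 582 CPM, and Igf1r 8.68, 10.4 and 7.43 CPM against 5.51 and 6.14 CPM. Fgf9, a growth factor, was the lower one, with 3.67, 3.82 and 3.92 CPM in stressed, 5.38 and 6.80 CPM in resilient, and 7.66 and 4.23 CPM in control libraries. Of 25 genes for sterol and fatty acid synthesis, 7 were higher without overlap and none lower, although the list's median was only 0.02. Scd1, a fatty acid desaturase, had 23.8, 28.04 and 19.3 CPM in stressed against 13.3 and 14.3 CPM in resilient libraries (0.78 ± 0.256). Insig1, which retains the SREBP activator SCAP in the endoplasmic reticulum, had 116, 131 and 98.8 CPM in stressed against 88.0 and 91.7 CPM in resilient libraries. Abca1, the exporter that loads lipid onto apolipoproteins, had 75.0, 73.6 and 67.01 CPM in stressed, 49.3 and 32.2 CPM in resilient, and 70.2 and 30.2 CPM in control libraries. Of 21 neuromodulator receptors, 6 were higher and 1 lower without overlap, among them the adrenergic receptors Adrb1 (14.9, 14.5 and 12.9 CPM against 6.92 and 10.2 CPM) and Adra1b (4.40, 5.58 and 4.95 CPM against 3.29 and 2.95 CPM). In both, the controls lay above the resilient libraries.

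Of 19 tested genes for the glucocorticoid receptor and its targets, which serve the hormonal stress response, 3 were higher and 2 lower without overlap, beside 10.5% and 10.3% of all genes, and the median log2 fold change was -0.07. Ddit4, an inhibitor of mTORC1 induced by glucocorticoids, had 45.3, 39.3 and 37.4 CPM in stressed, 19.2 and 34.6 CPM in resilient, and 55.2 and 51.6 CPM in control libraries. Nfkbia, the inhibitor of NF-kappaB, had 69.7, 75.0 and 53.0 CPM in stressed, 48.6 and 50.8 CPM in resilient, and 74.6 and 62.3 CPM in control libraries. In both, the controls sided with the stressed libraries. The receptor-bound co-chaperone gene Fkbp5 overlapped, with 4.40, 5.48 and 7.57 CPM in stressed against 7.13 and 7.08 CPM in resilient libraries, as did the kinase gene Sgk1, with 12.1, 19.4 and 28.4 CPM against 33.2 and 21.8 CPM. Sult1a1, a sulphotransferase, had 33.2, 33.4 and 34.7 CPM in stressed against 42.3 and 37.6 CPM in resilient libraries. Of 19 circadian clock genes 1 was higher and 2 lower, with Npas2, a partner of BMAL1, at 34.2, 34.6 and 46.9 CPM in stressed against 55.6 and 47.6 CPM in resilient libraries. Of 21 immediate early genes 3 were higher and none lower. Klf4 had 0.937, 0.832 and 0.405 CPM in stressed against 0.342 and 0.234 CPM in resilient libraries, and Fosl2 1.43, 1.27 and 1.26 CPM against 0.940 and 0.703 CPM.

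Among genes of reactive astrocytes without overlap, 2 were higher and 1 lower of 10 pan-reactive, 2 higher and 1 lower of 11 A1 and 1 higher and 0 lower of 6 A2 genes tested, beside 10.5% and 10.3% of all genes. Cd109, an A2 gene for a surface protein that binds TGF-beta, had 0.692, 0.587 and 0.540 CPM in stressed against 0.214 and 0.234 CPM in resilient libraries. Cp, ceruloplasmin, had 0.163, 0.245 and 0.135 CPM in stressed, 0.641 and 0.563 CPM in resilient, and 0.433 and 0.967 CPM in control libraries. Of 19 interferon and antigen presentation genes, 4 were higher and 2 lower. B2m, the light chain of class I molecules, had 118, 108 and 60.3 CPM in stressed, 54.2 and 57.9 CPM in resilient, and 77.4 and 25.3 CPM in control libraries, and H2-D1, whose reads may be shared with related class I genes, 47.0, 48.3 and 25.8 CPM, 24.3 and 24.8 CPM, and 44.1 and 16.6 CPM. Both were highest in the libraries that were high for Apoe.

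Lists of the translation and energy machinery had medians between -0.10 and 0.05, with no member called. Of 81 ribosomal protein genes none was without overlap in either direction, with a median log2 fold change of 0.05. Of 75 nuclear genes for oxidative phosphorylation 6 were lower and none higher, of 38 proteasome genes 8 were lower and none higher, and of 18 genes for metallothioneins and oxidative defence 3 were lower and none higher. Over all genes these shares were 10.5% higher and 10.3% lower. Ndufs1, a subunit of complex I, had 137, 142 and 185 CPM in stressed, 219 and 183 CPM in resilient, and 125 and 135 CPM in control libraries, with overlap. Psmd14, the deubiquitinase of the proteasome lid, had 119, 126 and 131 CPM in stressed, 151 and 146 CPM in resilient, and 114 and 116 CPM in control libraries. For Psmd14 the resilient libraries stood above both other groups. Of 22 glycolysis, glycogen and lactate genes 4 were lower and 1 higher, and Pfkp, the platelet phosphofructokinase, had 188, 193 and 249 CPM in stressed against 303 and 247 CPM in resilient libraries, with overlap. Of 18 lipid transport genes 4 were higher and none lower, of 23 calcium and cyclic AMP genes 3 higher and 1 lower, of 9 monoamine breakdown genes 2 lower, of 17 motor and spectrin genes none either way, and of 15 forebrain patterning genes 1 lower.

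Markers of neurons, which these libraries carry at a lower level, were on average lower in stressed libraries, but most single markers overlapped. Of 18 striatal projection neuron markers 17 had a negative log2 fold change (median -0.25) and 1 was lower without overlap. The shares over all genes, for this and the other cell lists here, were 10.5% higher and 10.3% lower. Of 16 general neuron markers 15 were negative (median -0.28) and none was without overlap. Gng7, a G protein subunit of striatal neurons, had 245, 343 and 466 CPM in stressed, 525 and 427 CPM in resilient, and 480.2 and 558 CPM in control libraries. Bcl11b, their transcription factor CTIP2, had 54.1, 70.2 and 104 CPM in stressed against 123 and 95.2 CPM in resilient libraries, and Syn1, a synaptic vesicle protein, 26.9, 36.5 and 82.5 CPM against 86.0 and 56.5 CPM. Each was lowest in stressed replicates 1 and 2 and reached the resilient range in stressed replicate 3. The mean log2 level of the general neuron markers was 5.01, 5.67 and 6.12 in stressed, 6.15 and 5.71 in resilient, and 6.32 and 6.11 in control libraries. Syn1 and Bcl11b passed by DESeq2 without stressed replicate 3. Of 14 oligodendrocyte markers 4 were lower without overlap and none higher (median -0.26). Beside Mobp, Cnp, a myelin enzyme, had 577, 629.5 and 689 CPM in stressed against 749.8 and 761 CPM in resilient libraries, and Ermn 8.35, 13.7 and 12.5 CPM against 14.8 and 15.9 CPM. The summed oligodendrocyte level was 1181 to 1437 CPM in stressed, 1607 to 1623 CPM in resilient and 1521 to 1674 CPM in control libraries. Of 16 markers of microglia and macrophages 14 were positive (median 0.52), but only 1 was higher and 1 lower without overlap. C1qb, a complement subunit, had 5.62, 5.53 and 1.89 CPM in stressed, 2.26 and 1.64 CPM in resilient, and 7.31 and 2.44 CPM in control libraries, again with stressed replicates 1 and 2 and control replicate 1 high. Itgam, the integrin CD11b, had 0.367, 0.440 and 0.270 CPM in stressed against 0.769 and 0.656 CPM in resilient libraries. Of the remaining cell lists, cortical neurons had no member of 10 without overlap, interneurons 1 lower of 13, oligodendrocyte precursors 1 higher of 10, meningeal cells 2 higher of 9, progenitors 2 higher of 9, and red blood cells none of 4. All 10 cortical neuron markers were negative (median -0.49). Their mean log2 level was 0.573 to 2.07 in stressed against 2.13 to 2.34 in resilient libraries. Its exact permutation p was 0.2, the smallest possible (adjusted p 0.545). The same p was reached by the oligodendrocyte level, lower by -0.26, and the precursor level, higher by 0.17. The part of these other cells in the differences above was not tested.

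Neither comparison with the controls called a gene by edgeR. Stressed against control gave 0 of 14958 genes (0%), with 1430 at an unadjusted p under 0.05, and resilient against control 0 (0%), with 1234. DESeq2 called 38 and 23 genes. These contrasts share the libraries of the main one, and their values for single genes are given above only side by side.

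To see whether the caudate putamen differed from the other regions, its difference between stressed and resilient libraries was set in 1 fit over 40 libraries against the mean difference in the other regions. These were the prefrontal cortex with 5 stressed and 4 resilient, the hippocampus with 5 and 3, and the nucleus accumbens with 4 and 3 libraries. Of 16759 genes 0 (0%) passed, with a smallest adjusted p of 0.304, and 1070 had an unadjusted p under 0.05, of which 643 (3.84%) were lower and 427 (2.55%) higher in the caudate putamen. The same edgeR fit called 1406 higher and 1142 lower genes for the prefrontal cortex and 774 and 492 for the hippocampus. It called none for the nucleus accumbens (544 at an unadjusted p under 0.05) or the caudate putamen (362). The 6 genes with the smallest interaction p were Hrct1, Flt1, Gkn3, Ly6c1, St3gal1 and Icam2. Flt1, Ly6c1 and Icam2 encode endothelial proteins. Flt1 had a log2 fold change of -3.76 ± 1.13 in the caudate putamen, against prefrontal cortex 1.93 ± 0.731, hippocampus 1.98 ± 0.898 and nucleus accumbens 2.41 ± 0.87 (interaction -5.87 ± 1.22, unadjusted p = 3.68e-05, adjusted p = 0.304 by edgeR). Ly6c1 had -2.11 ± 0.767, against 1.89 ± 0.576, 1.05 ± 0.653 and 2.18 ± 0.672. Slco1a4 had -3.11 ± 1.17, against 1.73 ± 0.847, 2.49 ± 0.949 and 2.05 ± 0.978. These 3 vascular genes had negative values here and positive ones in the 3 other regions, and no interaction passed adjustment. Counts were low throughout. Flt1 had 8 reads in 3 stressed and 80 in 2 resilient caudate putamen libraries. Gkn3 had none in 3 stressed libraries, where a count of 0 allows up to 3 reads over the group, against 19 in 2 resilient and 9 in 2 control libraries, and Icam2 none against 10 and 15.

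The log2 fold change of Irf2bp2 was highest in the caudate putamen, at 1.54 ± 0.43, followed by nucleus accumbens with 1.09 ± 0.349, hippocampus with 0.70 ± 0.333 and prefrontal cortex with -0.18 ± 0.297. Its interaction was 1.00 with an unadjusted p of 0.0356 and an adjusted p of 0.726 by edgeR. Ski had 1.58 ± 0.452, 0.82 ± 0.363, 0.68 ± 0.349 and -0.37 ± 0.312 in the same order (interaction 1.202 with an unadjusted p of 0.018 and an adjusted p of 0.726 by edgeR). Both genes were named for their small p in the caudate putamen. Their rank there and their interaction p use the libraries by which they were chosen. For Extl3 the log2 fold changes were 0.80 ± 0.305, 0.52 ± 0.252, 0.82 ± 0.246 and 0.54 ± 0.221, all positive. It was called in the hippocampus alone, with an adjusted p of 0.0413 by edgeR, and its interaction had an unadjusted p of 0.603. In the same order Igfbp2 had 0.83 ± 0.645, 1.09 ± 0.535, 1.71 ± 0.532 and 1.26 ± 0.469. Apoe had 1.07 ± 0.793, 1.16 ± 0.661, 0.85 ± 0.632 and 1.55 ± 0.587.

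**Figure D5:**
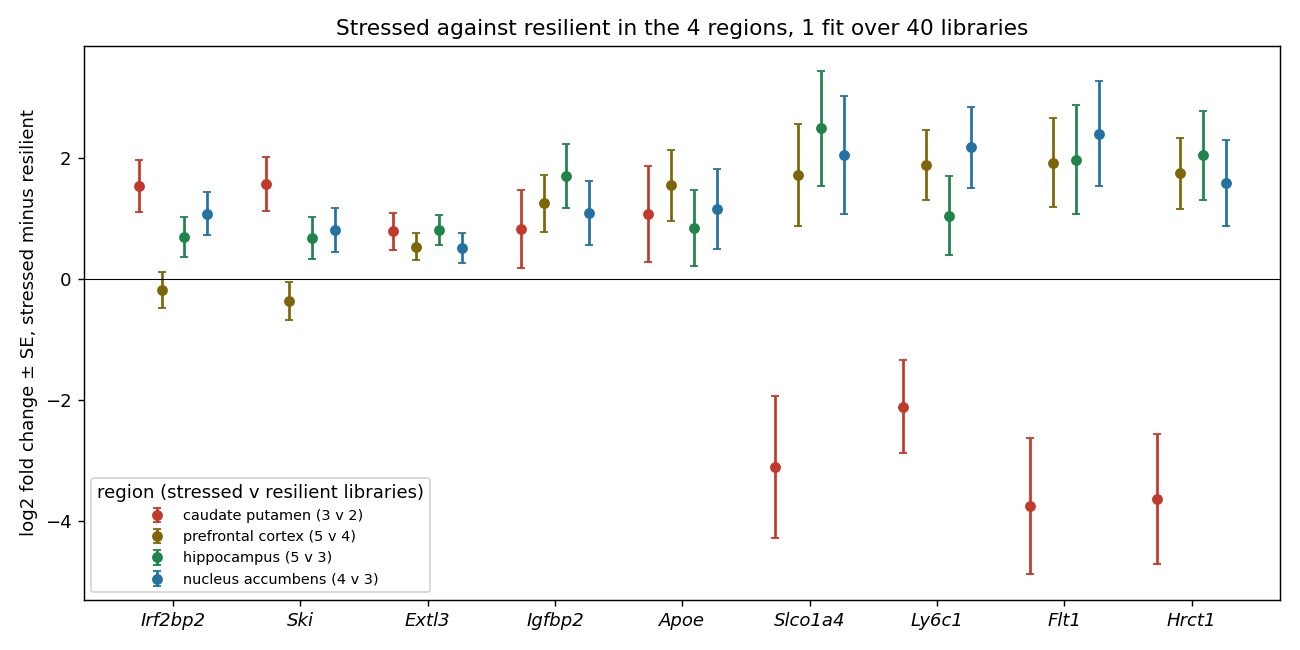
Log2 fold change of stressed minus resilient libraries with its standard error (vertical axis) for 9 genes in 4 regions, from 1 edgeR fit over 40 libraries. Slco1a4, Ly6c1, Flt1 and Hrct1 lie below 0 in the caudate putamen and above 0 in the other regions, and Irf2bp2 and Ski are highest in the caudate putamen and below 0 in the prefrontal cortex.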

How the data were processed

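Ribosome-bound RNA was counted per gene in 40 libraries. The authors deposited raw counts, whole numbers for each gene symbol. The submitters' processing notes name STAR 2.0.0e, HTSeq and the build mm10. Which HTSeq version, gene annotation, counting mode or strand option was used is not given in the sources used here, so overlapping and antisense genes may share reads. The closing lines for reads outside genes (2.46% to 2.98% without a feature and 10.4% to 11.6% with several alignments in the caudate putamen, of all reads the files list) and a row with no gene name were left out.

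The test was edgeR 4.0.16 (R 4.3.3), a robust quasi-likelihood F test on 7 caudate putamen libraries after filterByExpr and TMM scaling, two-sided, with Benjamini-Hochberg adjustment at 0.05. It left 4 residual degrees of freedom. CPM values use TMM-scaled totals, and log2 levels a prior count of 2. "Without overlap" means that all stressed libraries lie above, or all below, both resilient ones. DESeq2 1.42.0 was the other tool. The region test used all 40 libraries. Marker levels were compared by exact permutation. No libraries of a group agreed within sampling noise (chi-square divided by its degrees of freedom was 12.8 to 103 where a gene had 20 or more reads), and p-values measure the spread between pools of mice. GC content came from GENCODE M21 transcripts, and the offset for GC content used the share of the most GC-rich window only. The edgeR fits were also run on counts simulated from their own fitted model, which cannot show whether that model suits these libraries.

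The genes and lists were chosen with earlier results of these data known. Genes were named by a rule: the 10 with the smallest p in each direction, up to 4 of each list with the smallest p, the 6 with the smallest interaction p, and reference genes of astrocytes, with clone-named entries passed over.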

Additional observations from a re-analysis of the deposited data

How the results depend on the processing

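The count of 0 genes for stressed against resilient held in edgeR with RLE size factors, with the 5 stressed and resilient libraries only, in 1 fit over 40 libraries, with an offset for GC content and without each of the 7 libraries (0 to 0, smallest adjusted p 0.0798). With no filter on low counts 1 gene passed, Irf2bp2, and with DESeq2 3 passed. DESeq2 called 38 genes for stressed against control and 23 for resilient against control, where edgeR gave 0 in every setting. The DESeq2 count for stressed against resilient ran from 2 to 82 without single libraries. With the replicate block the edgeR counts were 0 for each comparison and the interaction. The samples share only a number. Deviations from the group means correlated at -0.323 between the stressed and resilient samples numbered 1 and at 0.125 between those numbered 2. Deviations of 2 resilient libraries mirror each other, so stressed replicate 1 had 0.323 with resilient replicate 2. These values therefore cannot decide whether samples of the same number belong together. The interaction gave 0 under the 8 alternatives run for it (RLE size factors, no filter, the replicate block and without each stressed or resilient library of the caudate putamen). The 99 named genes, most of them chosen for a small p in these same libraries, kept their sign in 1375 of 1382 alternative values. The alternatives refit the same counts, some without 1 library, so signs had little room to change. The genes with a changed sign were Aldoc, Gfap, Nefl and Glul. Without single libraries, Aldoc ran from -0.0020 (without resilient replicate 1) to 0.15, Gfap from -0.22 (without resilient replicate 1) to 0.72, Nefl from -1.03 to 0.094 (without resilient replicate 1), and Glul from -0.19 to 0.15 (without resilient replicate 2), with 0.046 without stressed replicate 3. Glul was 0.051 with the replicate block and 0.0042 in the fit over 40 libraries. The causes were not tested.

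With 2 resilient libraries, the median 95% interval reached 0.51 on the log2 scale to either side, and no marker level could reach a two-sided exact p below 0.2. Vascular genes rest on few reads. Dissection, vessel content and base composition were not measured apart from the counts.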

Other observations

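A set of 7 entries that the files name only by clone identifiers, chosen after their values were seen for a log2 fold change above 2 at a mean log2 CPM of at least 1, had log2 fold changes of 2.03 to 2.66 and unadjusted edgeR p of 0.0722 to 0.106. Their levels were 3.46 to 70.5 CPM in stressed replicate 1, 7.73 to 148 CPM in stressed replicate 2 and 0.495 to 18.2 CPM in stressed replicate 3. They were 0.384 to 13.5 CPM and 0.844 to 19.0 CPM in the resilient libraries, and 10.9 to 230.0 CPM and 1.07 to 18.9 CPM in control replicates 1 and 2. Stressed replicates 1 and 2 and control replicate 1 were high, which are also the libraries with high Apoe, Slc1a2, Sparc and C1qb.

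Of 1569 genes higher in all stressed than in both resilient libraries, both controls lay above both resilient libraries for 466. Of the others, both controls lay below all stressed libraries for 411. Of 1547 lower genes, both controls lay below both resilient libraries for 785, and of the others both lay above all stressed libraries for 374.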
